A study of Mus musculus with 8 samples.

Results

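The genes described here encode the general transcription factors and the RNA polymerases, 77 protein-coding genes of the 55385 in the table. They were chosen by symbol, as subunits of RNA polymerases I, II and III, the general factors of polymerase II from TFIIA to TFIIH, the TBP-associated factors (TAFs), the TBP family and the factors TFIIIA and TFIIIC of polymerase III. The rule used no measured value, but it was set with earlier results of these data known. The mRNAs were measured in pools of mouse oocytes grown in culture from embryonic stem cells of 2 XX lines. The sex-converted line is an XX line whose cells were derived from male cells, and the native line was XX from the start.

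The 4 groups were MII oocytes of the sex-converted line, GV oocytes of the sex-converted line, MII oocytes of the native line and GV oocytes of the native line, with 2 libraries each, which the labels call biological duplicates. GV (germinal vesicle) oocytes are grown oocytes held in prophase of the first meiotic division. MII oocytes have been matured to metaphase of the second division, where they wait for fertilisation. Both lines had a C57BL/6 x 129/SvJ background and carried Blimp1-mVenus and Stella-ECFP reporter transgenes. Germ cell-like cells made from them were aggregated with somatic cells of female gonads from embryonic day 12.5, which the oocytes of each group therefore shared as their somatic support. GV oocytes were taken at day 11 of growth culture, and MII oocytes after 16 hours of maturation in medium with FSH, EGF and hCG. Cumulus cells were taken off with enzymes and a glass capillary at GV, in the presence of dibutyryl-cAMP and IBMX, which hold meiotic arrest, and with hyaluronidase at MII. A library was made from a pool of 35 to 58 oocytes at MII and of 31 to 158 at GV. Each genotype is represented by 1 stem cell line in this table, so a difference between genotypes and one between lines cannot be told apart.

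RNA polymerase I transcribes the precursor of the large ribosomal RNAs, polymerase II the mRNAs, and polymerase III the tRNAs and other short RNAs. At a polymerase II promoter, TFIID, made of TBP and TAFs, binds with TFIIA and TFIIB, and polymerase II enters with TFIIF, TFIIE and TFIIH. In mice, growing oocytes depend on TBPL2, a germline relative of TBP, and fully grown GV oocytes stop transcribing, so that the mRNAs of a maturing oocyte are largely a stored pool whose poly(A) tails are lengthened or removed.

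Total counts per library were between 10306471 and 14999003 reads. All 12 oocyte markers examined (Gdf9, Bmp15, Zp3 and others) had reads in every library, with summed levels of 13090 to 15720 CPM at MII and 15290 to 18120 CPM at GV. Gdf9 was the largest part of the sums at MII. The medians of the markers were lower at MII, at 405 to 531 CPM against 938 to 1169 CPM at GV. Gdf9, Dppa3 and Kit had higher means at MII in both lines and the other markers lower means. CPM here are read counts on the usual scale of shares of a library, after scaling by trimmed mean of M-values (TMM), so each level is relative to the other mRNAs measured. Of the other cell types checked, the 15 granulosa and cumulus markers summed to 119.2 and 122.5 CPM in sex-converted MII, 58.5 and 67.0 CPM in sex-converted GV, 137.5 and 116 CPM in native MII, and 78.1 and 56.4 CPM in native GV libraries. Between 3 and 8 of these markers were at 0 in a library. The granulosa receptor gene Fshr had no read in any MII library and Nr5a2 had lower means at MII, whereas Cyp19a1, Kitl and Has2 were higher at MII in both lines. Cyp19a1 averaged 49.3 CPM in sex-converted MII against 12.9 CPM in sex-converted GV, and 56.6 CPM in native MII against 17.4 CPM in native GV libraries. In the same order, Kitl averaged 31.2 against 5.56 CPM and 22.9 against 4.20 CPM, and Has2 6.24 against 1.54 CPM and 5.18 against 0.560 CPM. The 11 stroma and theca markers summed to 13.7 and 3.61 CPM in sex-converted MII, 2.21 and 1.56 CPM in sex-converted GV, 19.5 and 6.83 CPM in native MII, and 1.34 and 1.69 CPM in native GV libraries. Col1a2, Lum and Tcf21 of that list were at 0 throughout, but Vim and Acta2 were higher at MII. Vim had 7.34 and 1.43 CPM in sex-converted MII and 16.7 and 2.43 CPM in native MII, against 0.223 CPM or less in each GV library. Acta2 had 3.83 and 0.856 CPM in sex-converted MII and 0.477 and 1.27 CPM in native MII, against 0 in each GV library. The 8 endothelial and blood markers summed to 202 to 287 CPM at MII and 76.6 to 112 CPM at GV, nearly all of it from Pecam1 and Tek, with Hba-a1 at 0 throughout. These sums were higher at MII than at GV, and their part in the changes given below was not tested. Because RNA was selected by its poly(A) tail, a change in tail length and a change in the amount of an mRNA cannot be told apart. A level per pool also cannot tell fewer cells of a type from less RNA per cell.

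Among the 75 members with enough reads to test, 20 rose and 32 fell at MII relative to GV in the sex-converted line, and 23 rose and 34 fell in the native line. These calls were made at an adjusted p under 0.05 by edgeR's quasi-likelihood test, with Benjamini-Hochberg adjustment over all 14929 genes tested. Of all genes tested, 29.3% were called higher and 36.2% lower at MII in the sex-converted line, and 29.6% higher and 35.7% lower in the native line. The members' shares were 26.7% higher and 42.7% lower in the sex-converted line and 30.7% higher and 45.3% lower in the native line, so as a whole they moved about as often as genes in general. Changes of 4-fold or more were called upward for 9 members and downward for 21 in the sex-converted line, and upward for 11 and downward for 23 in the native line. The background for such changes was 11.8% upward and 25.0% downward in the sex-converted line, and 12.6% upward and 24.2% downward in the native line. The median log2 fold change, MII over GV, was -0.49 over the members and -0.35 over all genes tested in the sex-converted line, and -0.44 and -0.31 in the native line. With library totals in place of TMM, 13 rose and 46 fell in the sex-converted line and 13 rose and 45 fell in the native line. The direction was shared between lines for most, as 20 members were called higher in both and 30 lower in both. This was common among genes as well. Of the 11922 genes tested with an annotated 3′ untranslated region of at least 100 bases, 3576 were higher in both and 3868 lower in both. The shared direction is therefore no trait of the members.

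The members did not move as 1 block. A first set of 38 members tested serves polymerase II (its own subunits, TFIIA to TFIIH, TFIID and the TBP family). Of these, 17 rose and 11 fell in the sex-converted line (44.7% and 28.9%). In the native line 18 rose and 13 fell (47.4% and 34.2%). TFIID gave 11 of these risers in each line and TFIIA 2, while the group of polymerase II itself gave 1. The set includes Tbp, whose product serves all 3 polymerases, and leaves out the 5 subunits that all 3 share. Of 26 that serve polymerases I and III, 1 rose and 15 fell in the sex-converted line (3.85% and 57.7%). In the native line 2 of them rose and 16 fell (7.69% and 61.5%). The shares of all genes tested were 29.3% higher and 36.2% lower in the sex-converted line, and 29.6% and 35.7% in the native line. They are also the background for the counts of each group and list below. With library totals the first set had 11 higher and 19 lower in the sex-converted line and 11 higher and 18 lower in the native line, and the second 0 higher and 21 lower in each, so that more members of polymerase II fell than rose on that scale. The members' summed level was 6965 ± 141 CPM in sex-converted MII against 4218 ± 319 CPM in sex-converted GV oocytes, and 6877 ± 147 CPM in native MII against 4431 ± 416 CPM in native GV oocytes (SD, n = 2 each). Without Gtf2a1 these sums were 5620 ± 85.6 CPM in sex-converted MII against 4202 ± 315 CPM in sex-converted GV, and 5574 ± 194 CPM in native MII against 4418 ± 417 CPM in native GV oocytes. On the TMM scale the sum was thus higher at MII, where the largest levels in CPM were those of Gtf2a1, Taf4 and Polr2c, which rose. With library totals the direction turned, and the members summed to 5093 ± 97.1 CPM in sex-converted MII against 5892 ± 266 CPM in sex-converted GV oocytes, and 4948 ± 39.3 CPM in native MII against 5986 ± 396 CPM in native GV oocytes.

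**Figure D1:**
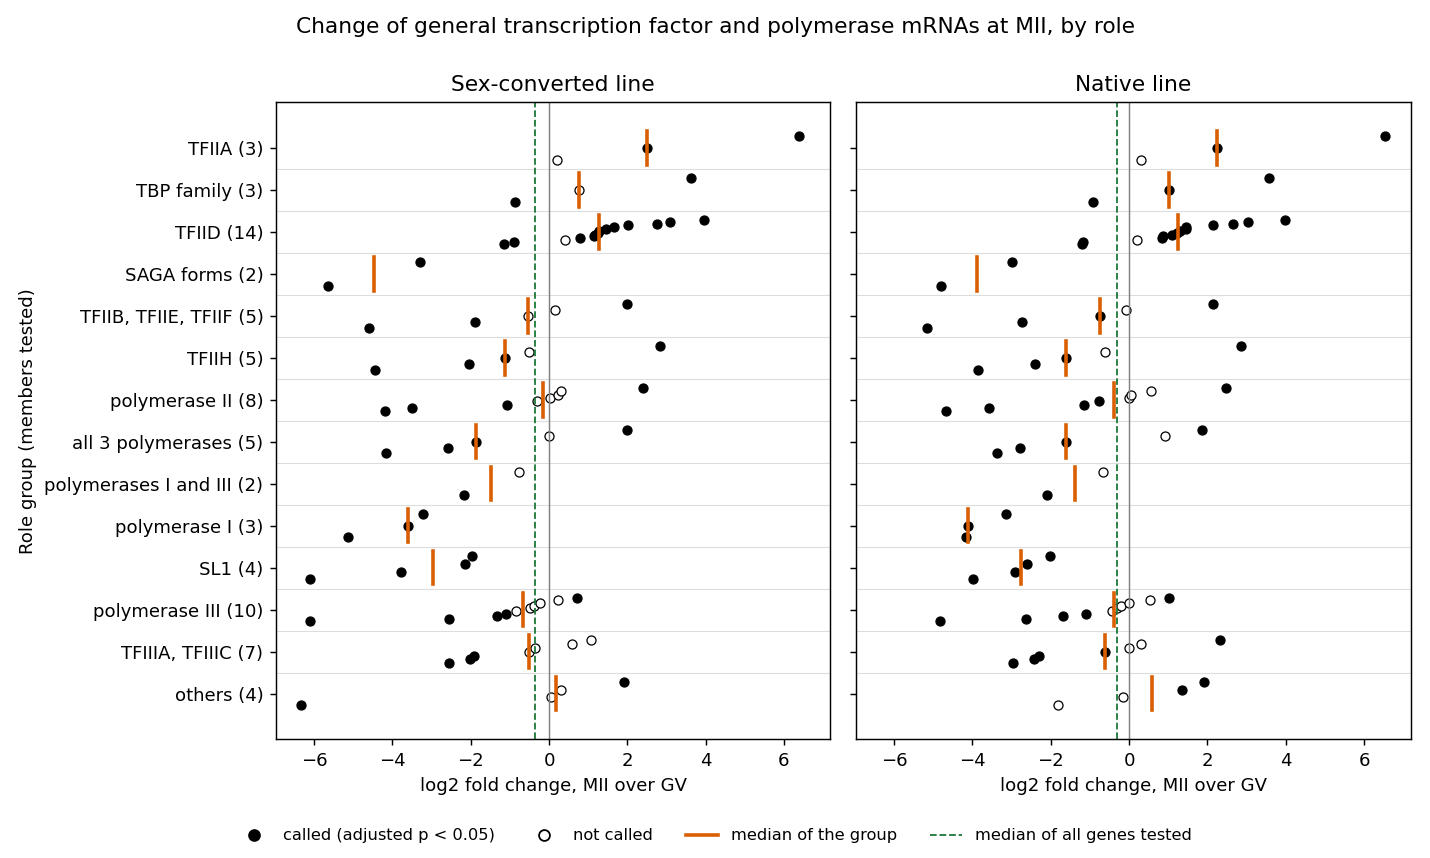
Each point is 1 member, at its log2 fold change (MII over GV) in the sex-converted line on the left and in the native line on the right, sorted into rows by role with the number tested in brackets. Filled points passed the threshold, orange bars are the medians of the rows, and the dashed line is the median of all genes tested (-0.35 and -0.31). On the TMM scale, the points of TFIIA and most of TFIID lie to the right, and those of polymerase I, SL1 and the SAGA forms to the left.

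**Figure D2:**
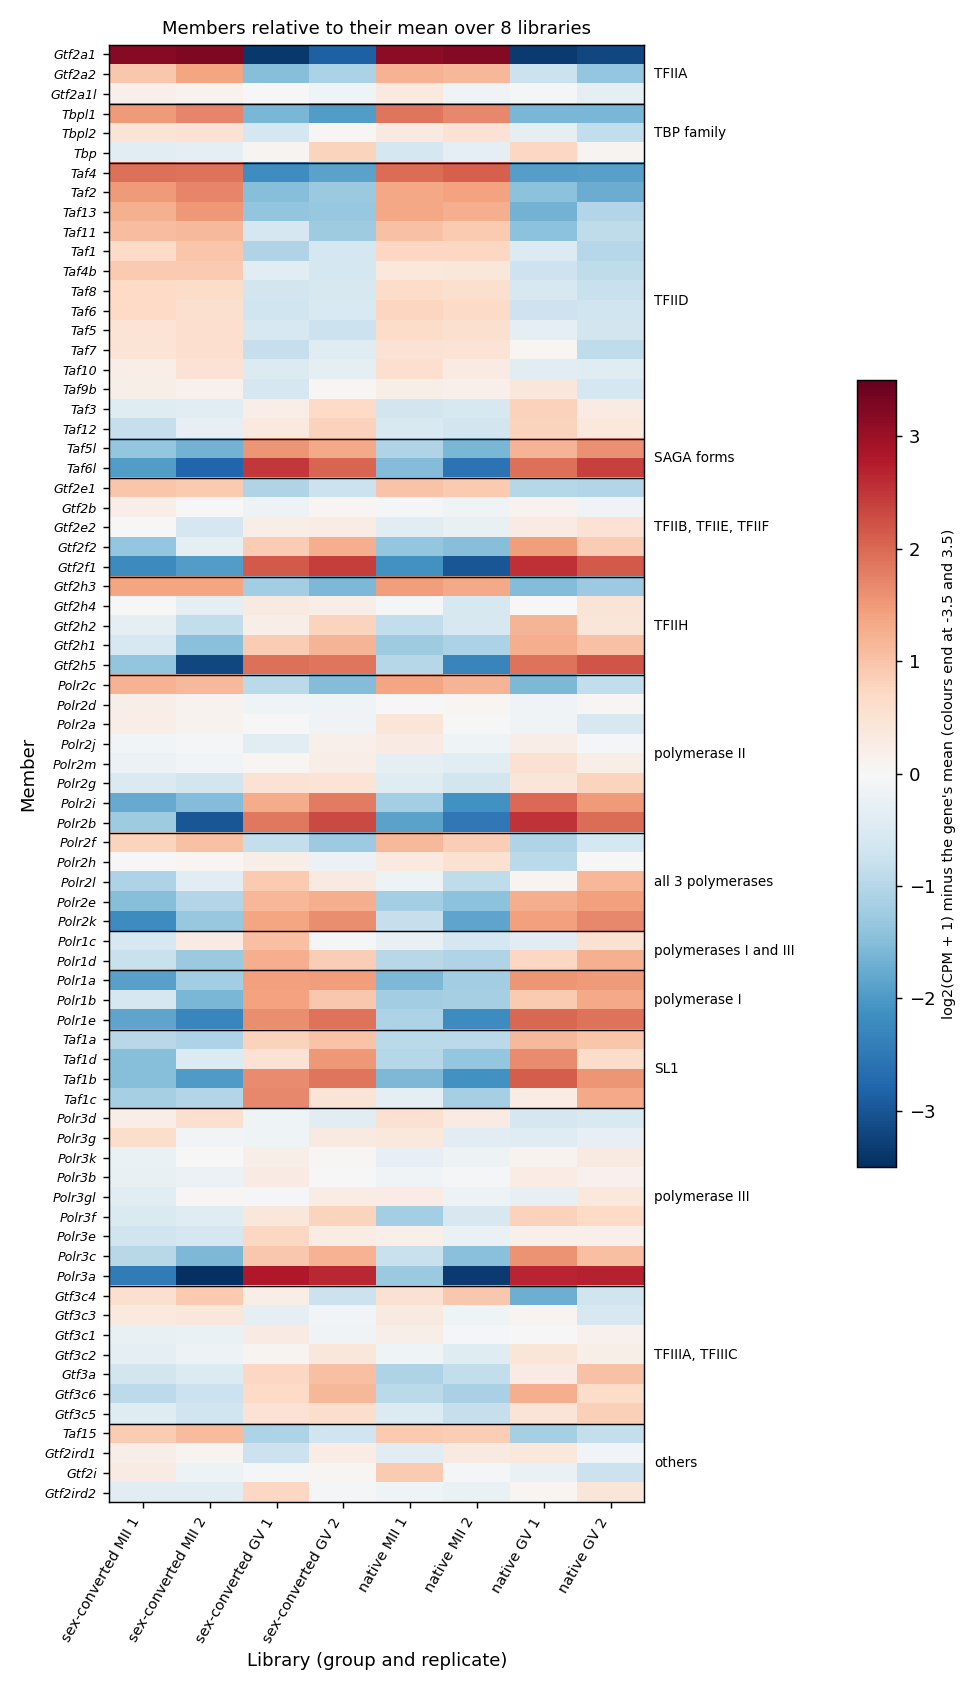
Each row is 1 member and each column 1 library, grouped as sex-converted MII, sex-converted GV, native MII and native GV. Colour gives log2(CPM + 1) minus the mean of the gene over the 8 libraries, from blue (below) to red (above). The MII columns of both lines show nearly the same pattern, with Gtf2a1 the reddest of the rows and Polr3a, Taf6l, Gtf2f1 and Gtf2h5 among the bluest.

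A short motif near the 3′ end of an mRNA, the cytoplasmic polyadenylation element, is known to be bound by CPEB1 in oocytes and to mark stored mRNAs for tail lengthening. It was searched as TTTTAT or TTTTAAT, on the mRNA strand, in the last 100 bases of 1 transcript per gene. The transcripts were those of GENCODE M21 on GRCm38 (mm10). The 30-base windows that follow hold the last such element of members described below, printed 5′ to 3′ on the mRNA strand. The element and any AATAAA or ATTAAA (the polyadenylation signal) are in capitals. The first 7 belong to members that rose in both lines.

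Gtf2a1 (chr12:91555262-91555291, minus strand): atAATAAAgataTTTTATttattgccagca
Gtf2a2 (chr9:70022660-70022689, plus strand): aatgtaacttttTTTTAATgacaaatcaaa
Taf4 (chr2:179912190-179912219, minus strand): taattgctattgTTTTATataggattgaaa
Taf5 (chr19:47083413-47083442, plus strand): cattttgtacagTTTTATatttttgatatc
Taf11 (chr17:27901178-27901207, minus strand): tgggaaagtttaTTTTATtttgttgcagac
Tbpl1 (chr10:22703896-22703925, minus strand): tactgtaaaattTTTTATataAATAAAaac
Gtf2e1 (chr16:37509860-37509889, minus strand): tctttgtttcgTTTTATatgagattgtgta

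The same letters also occurred in 3′ ends of members that fell in both lines by 4-fold or more.

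Gtf2h5 (chr17:6086471-6086500, plus strand): tcaccaataccaTTTTATATTAAAacacaa
Polr2b (chr5:77349247-77349276, plus strand): ttgtgataagaaTTTTATttgttttgttta
Polr2k (chr15:36176908-36176937, plus strand): gtaTTTTAATactttgtataaaggaaattt

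In Gtf2h5 the printed element and the signal stand side by side. In Gtf2a1 the printed element starts 18 bases before the annotated end and follows the signal. Gtf2a1, Taf4 and Gtf2h5 each held 2 elements in the last 100 bases, and the earlier one is not printed. Among members with an annotated 3′ untranslated region of at least 100 bases, 16 of 72 (22.2%) held the element, close to the 19.9% of all genes tested (2368 of 11922). It was present in 7 of 19 members that rose in both lines (36.8%) and in 4 of 26 that fell in both (15.4%). Over all genes, the shares were 33.5% of those that rose in both lines and 10.3% of those that fell in both. Of members that rose 4-fold or more in both lines, 5 of 9 held it (55.6%), against 3 of 16 that fell as far (18.8%). Over all genes these shares were 41.0% and 8.7%. The members' shares stand in the same order as those of all genes, on small numbers, and a match of letters is no evidence that CPEB1 bound there. Polr2f, which rose, held the element but had an annotated region shorter than 100 bases and is not in these counts.

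TFIIA steadies TBP on promoter DNA. Its large subunits α and β are cut from 1 precursor encoded by Gtf2a1, or in germ cells by the relative Gtf2a1l, and its small subunit γ is encoded by Gtf2a2. Gtf2a1 (ENSMUSG00000020962, chr12:91555262-91590487, minus strand) had 1305 and 1383 CPM in sex-converted MII against 12.9 and 19.1 CPM in sex-converted GV oocytes, and 1270.1 and 1335 CPM in native MII against 13.2 and 14.8 CPM in native GV oocytes. The stages were far apart in both lines, and the duplicates of a stage lay close to each other. The log2 fold changes were 6.39 ± 0.24 in the sex-converted line (SE, adjusted p = 1.3e-07) and 6.54 ± 0.24 in the native line (adjusted p = 1e-07), or 83.7-fold and 93.2-fold. Ranked from the largest rise, Gtf2a1 stood at 11 of 14929 genes in the sex-converted line and 18 in the native line. Per kilobase of exon, its mean level at MII, 215 in the sex-converted and 209 in the native line, was exceeded among the members by Polr2d alone.

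Gtf2a2 rose as well, with 179 and 240.2 CPM in sex-converted MII against 31.9 and 42.0 CPM in sex-converted GV, and 217 and 207 CPM in native MII against 53.9 and 35.5 CPM in native GV oocytes. Its log2 fold changes were 2.50 ± 0.26 and 2.24 ± 0.26 (adjusted p = 1e-05 and 2e-05). Gtf2a1l did not pass the test, with 58.6 and 56.1 CPM in sex-converted MII against 51.9 and 46.9 CPM in sex-converted GV, and 65.6 and 47.4 CPM in native MII against 50.01 and 41.4 CPM in native GV oocytes. Its levels overlapped between stages in the native line, and with library totals it was lower at MII in both lines (-0.72 and -0.60). Per kilobase, Gtf2a1 was at 5.86 to 8.52 times the level of Gtf2a1l in the 4 MII libraries and at 0.0750 to 0.124 times that level in the 4 GV libraries, so the more abundant of the pair differed between the stages. The sum of the 3 TFIIA mRNAs was 1612 ± 96.9 CPM in sex-converted MII against 102 ± 8.07 CPM in sex-converted GV oocytes, and 1571 ± 26.9 CPM in native MII against 104 ± 18.03 CPM in native GV oocytes (SD, n = 2 each).

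The TBP family has 3 genes in mice. Tbp encodes the TATA-binding protein of all 3 polymerase systems, Tbpl1 encodes a relative (TRF2) that binds TFIIA and is needed for spermatid development in mice, and Tbpl2 the oocyte relative. Tbpl1 had 55.3 and 63.7 CPM in sex-converted MII against 5.60 and 4.09 CPM in sex-converted GV, and 71.3 and 62.1 CPM in native MII against 5.57 and 5.56 CPM in native GV oocytes. Each MII library was well above each GV library, with log2 fold changes of 3.62 ± 0.26 and 3.58 ± 0.26 (adjusted p = 1.2e-06 in both lines). Of its exon bases, 12.4% lie opposite Slc2a12, whose reads could add to it if counting ignored strand.

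Tbp went the other way, at 51.8 and 52.7 CPM in sex-converted MII against 73.1 and 118 CPM in sex-converted GV, and 43.6 and 53.0 CPM in native MII against 112 and 71.8 CPM in native GV oocytes. Of its exon bases, 19.0% lie opposite Pdcd2. Its GV duplicates differed from each other by more than the nearest libraries of the stages did, and the log2 fold changes were -0.87 ± 0.28 and -0.93 ± 0.28 (adjusted p = 0.019 and 0.014). The call did not hold without sex-converted GV replicate 2 (-0.45, adjusted p = 0.245) or without native GV replicate 1 (-0.54, adjusted p = 0.148). Without sex-converted MII replicate 1 or 2, or native MII replicate 1, the adjusted p was 0.077, 0.076 and 0.085 in the line concerned.

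Tbpl2 had 24.0 and 25.3 CPM in sex-converted MII against 11.0 and 18.1 CPM in sex-converted GV, and 21.8 and 25.0 CPM in native MII against 13.8 and 9.08 CPM in native GV oocytes. The stages did not overlap, but the difference passed the threshold in the native line alone (1.03 ± 0.32, adjusted p = 0.015), with 0.76 ± 0.31 and adjusted p = 0.052 in the sex-converted line. The lines' changes were not shown to differ (interaction -0.27 ± 0.44, adjusted p = 1). In the sex-converted line the difference passed with the size factors of DESeq2 in edgeR (RLE, adjusted p = 0.043), with DESeq2 itself (0.0354), in the compared libraries alone (0.0447), with a crossed replicate block added after seeing the data (0.0154), and without sex-converted GV replicate 2 (1.20, adjusted p = 0.0198) or either native GV library (0.0378 and 0.0383). With library totals the values were -0.17 in the sex-converted and 0.13 in the native line, and neither passed. Per kilobase, Tbpl2 was at 4.56 to 4.91 times the level of Tbp in MII libraries and at 1.21 to 1.51 times that level in GV libraries, and Tbp at 0.147 to 0.226 times the level of Tbpl1 at MII against 3.11 to 6.92 times at GV. These ratios take the annotated exons as the length, and Tbp is annotated with a 3′ untranslated region of 11596 bases, which lowers its level per kilobase if that form is rare here.

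**Figure D3:**
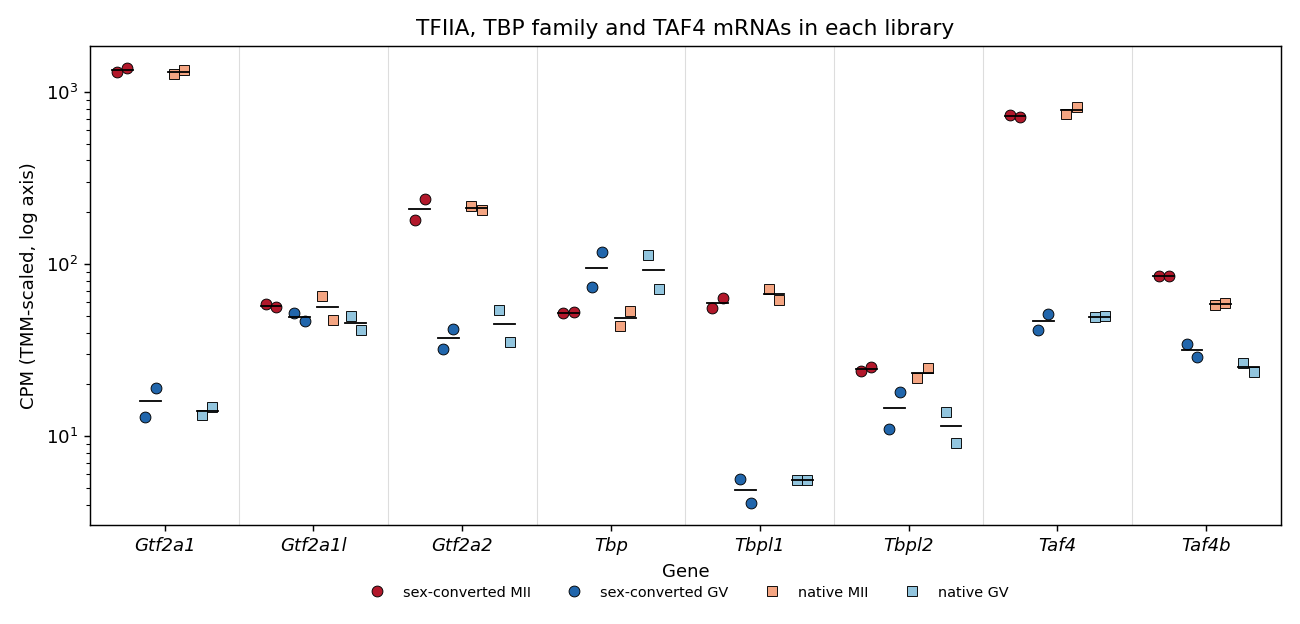
Points are single libraries, at their TMM-scaled CPM on a log axis, with sex-converted MII, sex-converted GV, native MII and native GV from left to right for each gene and a bar at each mean. Gtf2a1 sits at 1270.1 CPM or more at MII and at 19.1 CPM or less at GV, while Gtf2a1l lies between 41.4 and 65.6 CPM in the 8 libraries. Tbpl1 and Taf4 also lie higher at MII, with smaller gaps between the stages than Gtf2a1, and Tbp is lower at MII.

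Most TFIID mRNAs rose. Of 16 members in the group, 14 were tested, and the same 11 rose and 2 fell in each line, that is 78.6% higher. The medians were 1.27 and 1.26 against -0.35 and -0.31 for all genes. Their summed level was 2667 ± 96.2 CPM in sex-converted MII against 1058 ± 156 CPM in sex-converted GV oocytes, and 2639 ± 5.66 CPM in native MII against 1126 ± 269 CPM in native GV oocytes (SD, n = 2 each). The count depends on the scaling: with library totals alone, Taf10, Taf4b, Taf5, Taf7 and Taf8 no longer passed in either line, nor Taf6 in the sex-converted and Taf1 in the native line, and Taf10 in both lines and Taf7 in the native line took a negative sign. Taf7 also missed the threshold in the native line without native GV replicate 2 (adjusted p = 0.115), native MII replicate 1 (0.066) or native MII replicate 2 (0.064), Taf10 in the sex-converted line without sex-converted MII replicate 2 (0.069), and Taf3 in the sex-converted line without sex-converted GV replicate 2 (0.07).

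Taf4 (chr2:179912152-179976646, minus strand), whose product holds the core of TFIID together with TAF12, rose most. It had 736 and 719 CPM in sex-converted MII against 41.5 and 51.4 CPM in sex-converted GV, and 744 and 820.3 CPM in native MII against 49.0 and 49.95 CPM in native GV oocytes. Its log2 fold changes were 3.97 ± 0.19 and 3.98 ± 0.19 (adjusted p = 2.9e-07 and 2.3e-07). Taf4b, its relative that is needed for the oocyte reserve of mice, had 85.6 and 85.8 CPM in sex-converted MII against 34.2 and 28.8 CPM in sex-converted GV, and 58.1 and 59.7 CPM in native MII against 26.7 and 23.7 CPM in native GV oocytes. It rose by 1.44 ± 0.21 and 1.22 ± 0.21 (adjusted p = 0.00011 and 0.00039). Per kilobase, Taf4 was at 9.34 to 15.3 times the level of Taf4b in MII libraries and at 1.35 to 2.35 times that level in GV libraries.

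Taf2, a subunit that contacts the initiator, had 121 and 142 CPM in sex-converted MII against 14.4 and 16.5 CPM in sex-converted GV, and 109 and 114 CPM in native MII against 15.1 and 12.1 CPM in native GV oocytes (log2 fold changes 3.09 and 3.03, adjusted p = 1.3e-06 in both lines). Taf13 had 219 and 264 CPM in sex-converted MII against 34.9 and 36.3 CPM in sex-converted GV, and 239 and 223 CPM in native MII against 28.8 and 44.4 CPM in native GV oocytes (2.76 and 2.66). Taf11, which pairs with TAF13, had 104 and 108 CPM in sex-converted MII against 32.3 and 20.0 CPM in sex-converted GV, and 99.7 and 92.9 CPM in native MII against 17.4 and 26.1 CPM in native GV oocytes (2.02 and 2.15). In each of these the stages were apart in both lines. The remaining risers were smaller, with log2 fold changes of 1.67 and 1.47 for Taf1, the largest subunit, 1.27 and 1.29 for Taf8, 1.26 and 1.46 for Taf6, 1.18 and 1.09 for Taf5, 1.14 and 0.84 for Taf7, and 0.78 and 0.86 for Taf10. Of the exon bases of Taf10, 45.9% lie opposite Ilk, of those of Taf6 26.5% opposite Ap4m1, and of those of Taf11 16.2% opposite Anks1 and AC126040.2.

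The members of TFIID that fell were Taf3 and Taf12. Taf3, whose product reads the active promoter mark H3K4me3, had 110.0 and 114 CPM in sex-converted MII against 174 and 242 CPM in sex-converted GV, and 94.6 and 100.7 CPM in native MII against 259 and 182 CPM in native GV oocytes (-0.89 and -1.18, adjusted p = 0.0048 and 0.00084). Taf12, the histone-fold partner of TAF4, had 29.8 and 43.2 CPM in sex-converted MII against 68.3 and 94.4 CPM in sex-converted GV, and 36.2 and 33.6 CPM in native MII against 92.1 and 69.3 CPM in native GV oocytes (-1.16 and -1.21, adjusted p = 0.0026 and 0.002). So the mRNAs of the 2 partners TAF4 and TAF12 moved in opposite directions. Taf9b did not pass the test, with 262 and 251 CPM in sex-converted MII against 151 and 232 CPM in sex-converted GV, and 259 and 256 CPM in native MII against 297 and 148 CPM in native GV oocytes, where the stages overlapped. Its native change was 0.21, and 0.83 with a call without native GV replicate 1 (adjusted p = 0.0157). Taf9 had 1 to 8 reads per library and was not tested. Of its exon bases, 73.8% are shared on the same strand with Ak6, and such reads may not have been assigned. Taf7l, a form used in the testis, had 0 reads in all 8 libraries.

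Taf5l and Taf6l encode relatives of TAF5 and TAF6 that sit in the coactivator SAGA instead of TFIID, and both fell. Taf6l had 1.42 and 0.3804 CPM in sex-converted MII against 50.8 and 37.6 CPM in sex-converted GV, and 2.29 and 0.579 CPM in native MII against 34.7 and 48.0 CPM in native GV oocytes (-5.64 ± 0.58 and -4.79 ± 0.54, adjusted p = 9.7e-06 and 1.8e-05). Taf5l had 3.61 and 2.76 CPM in sex-converted MII against 33.6 and 28.6 CPM in sex-converted GV, and 4.68 and 2.89 CPM in native MII against 25.7 and 34.6 CPM in native GV oocytes (-3.29 and -2.98). Per kilobase, Taf6 was at 33.0 to 175 times the level of Taf6l in MII libraries and at 0.539 to 0.821 times that level in GV libraries. Taf5 was at 51.8 to 84.0 times the level of Taf5l at MII and at 2.85 to 4.73 times at GV. For both pairs the TFIID form held a larger part at MII in each library. Other SAGA genes, from a list outside the members, were mixed, with 5 of 11 tested higher and 4 lower in each line. Sgf29 (-4.47 and -4.24) and Supt20 (-4.07 and -4.29) fell, and Tada1 (2.36 and 2.61) and Atxn7 (2.09 and 2.12) rose.

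Of the other general factors of polymerase II, TFIIB showed no called change. Its gene Gtf2b, whose product links TBP to polymerase II, had 406 and 352 CPM in sex-converted MII against 311 and 369 CPM in sex-converted GV, and 342 and 320.1 CPM in native MII against 381 and 320.0 CPM in native GV oocytes, with the stages overlapping (0.16 ± 0.18 and -0.08 ± 0.18, adjusted p = 0.44 and 0.70). With library totals alone it was lower at MII in both lines (-0.78 and -0.99). The subunits of TFIIE, which brings in TFIIH, differed. Gtf2e1 rose, with 26.3 and 24.8 CPM in sex-converted MII against 5.66 and 7.26 CPM in sex-converted GV, and 26.5 and 25.2 CPM in native MII against 5.90 and 5.84 CPM in native GV oocytes (1.98 and 2.14). Gtf2e2 was at -0.54 (adjusted p = 0.07) in the sex-converted line and fell by 0.75 (adjusted p = 0.02) in the native line, a call lost without native GV replicate 2 (adjusted p = 0.082) or native MII replicate 1 (0.099) and gained in the sex-converted line without sex-converted MII replicate 1 (0.029).

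Both TFIIF genes fell. TFIIF escorts polymerase II to the promoter, and Gtf2f1 encodes its large subunit. Gtf2f1 had 4.71 and 5.90 CPM in sex-converted MII against 117 and 141 CPM in sex-converted GV, and 5.16 and 2.31 CPM in native MII against 156 and 117 CPM in native GV oocytes (-4.59 ± 0.35 and -5.17 ± 0.36, adjusted p = 1.4e-06 and 9.1e-07). It was among the most abundant members at GV per kilobase, at 74.9 in the sex-converted and 79.5 in the native line, and at 3.09 and 2.18 at MII. Gtf2f2, the small subunit, had 12.2 and 26.0 CPM in sex-converted MII against 61.2 and 80.7 CPM in sex-converted GV, and 12.03 and 10.9 CPM in native MII against 91.9 and 61.7 CPM in native GV oocytes (-1.89 and -2.74). Without sex-converted MII replicate 2 its fall in that line was -2.55, and the stages did not overlap in either line.

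TFIIH opens the DNA and phosphorylates polymerase II, and serves DNA repair as well. Among its 5 members, 1 rose and 3 fell in each line. The riser was Gtf2h3 (subunit p34), with 111 and 112 CPM in sex-converted MII against 17.6 and 13.6 CPM in sex-converted GV, and 117 and 107 CPM in native MII against 14.1 and 16.7 CPM in native GV oocytes (2.84 and 2.86, adjusted p = 1.9e-06 and 1.8e-06). Gtf2h5, the smallest subunit, had 4.16 and 0.476 CPM in sex-converted MII against 50.1 and 48.9 CPM in sex-converted GV, and 5.73 and 1.74 CPM in native MII against 49.2 and 60.7 CPM in native GV oocytes (-4.45 ± 0.67 and -3.85 ± 0.64). The MII duplicates of Gtf2h5 differed several-fold but stayed far below the GV libraries. Gtf2h1 had 29.7 and 15.2 CPM in sex-converted MII against 82.5 and 100.8 CPM in sex-converted GV, and 17.9 and 19.9 CPM in native MII against 107 and 90.9 CPM in native GV oocytes (-2.03 and -2.39). Gtf2h2 fell (-1.12 and -1.61), in the sex-converted line not without sex-converted GV replicate 2 (adjusted p = 0.107) or MII replicate 2 (0.098), and Gtf2h4 did not pass the test (-0.51 and -0.61).

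The 5 TFIIH genes outside the rule all fell in both lines, where 36.2% and 35.7% of all genes tested were called lower. These were the helicase genes Ercc3 (-4.12 and -3.94) and Ercc2 (-3.505 and -2.605) and the kinase module genes Cdk7 (-1.60 and -1.96), Ccnh (-2.42 and -2.61) and Mnat1 (-2.08 and -2.36). Gtf2h3 was thus the 1 gene of the 10 of TFIIH examined that rose.

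Polymerase II has 12 subunits, of which 5 are shared with polymerases I and III. Of the 8 members in the group of its own (7 subunits and Polr2m), 1 rose and 3 fell in the sex-converted line, and 1 rose and 4 fell in the native line, and of the 5 shared ones 1 rose and 3 fell in each. With library totals, 7 of the 8 fell in the sex-converted line and 6 in the native line. The catalytic subunits went apart. Polr2a, the largest subunit with the C-terminal repeats, had 73.0 and 66.9 CPM in sex-converted MII against 61.6 and 56.9 CPM in sex-converted GV, and 83.7 and 61.1 CPM in native MII against 56.5 and 41.7 CPM in native GV oocytes, and did not pass the test (0.24 ± 0.23 and 0.56 ± 0.24, adjusted p = 0.39 and 0.056). It passed in the native line without native GV replicate 1 (0.81, adjusted p = 0.02) or native MII replicate 2 (0.74, adjusted p = 0.043), and with RLE factors (0.0388) or DESeq2 (0.0374). Polr2b, which forms the active site with it, had 9.96 and 2.28 CPM in sex-converted MII against 92.6 and 129 CPM in sex-converted GV, and 6.11 and 3.59 CPM in native MII against 150.0 and 100.7 CPM in native GV oocytes (-4.19 ± 0.54 and -4.68 ± 0.55, adjusted p = 4.5e-05 and 2.5e-05).

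Polr2c, part of the assembly platform, rose, with 632 and 594 CPM in sex-converted MII against 140.5 and 93.6 CPM in sex-converted GV, and 709.7 and 614 CPM in native MII against 89.5 and 148 CPM in native GV oocytes (2.39 and 2.48). Polr2i, a subunit tied to proofreading, fell, with 3.83 and 4.76 CPM in sex-converted MII against 39.7 and 57.2 CPM in sex-converted GV, and 6.21 and 2.78 CPM in native MII against 63.6 and 45.4 CPM in native GV oocytes (-3.49 and -3.58). Of the exon bases of Polr2c, 18.1% lie opposite Dok4, and of those of Polr2i 26.8% opposite Tbcb. Polr2d, the most abundant member per kilobase in all 4 groups, did not pass the test, with 334 and 311 CPM in sex-converted MII against 261 and 261 CPM in sex-converted GV, and 284 and 300.3 CPM in native MII against 263 and 297 CPM in native GV oocytes. Its sign turned with the scaling (-0.63 and -0.85 with library totals). Polr2j, with 15.9% of its exon bases opposite Lrwd1, did not pass either (0.02 and -0.003), Polr2g, which pairs with Polr2d in the stalk, fell (-1.07 and -1.16), and Polr2m was at -0.31 in the sex-converted line and fell by 0.77 in the native line (adjusted p = 0.023), a call lost without native GV replicate 1 or either native MII library (adjusted p = 0.153, 0.065 and 0.092).

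Of the shared subunits, Polr2f rose, with 100.2 and 121 CPM in sex-converted MII against 32.1 and 23.4 CPM in sex-converted GV, and 129.7 and 107 CPM in native MII against 27.3 and 37.5 CPM in native GV oocytes (1.99 and 1.87). Polr2k, a small zinc-binding subunit, had 0.328 and 1.43 CPM in sex-converted MII against 14.8 and 17.9 CPM in sex-converted GV, and 2.48 and 0.694 CPM in native MII against 15.5 and 18.6 CPM in native GV oocytes (-4.17 ± 0.60 and -3.38 ± 0.56). Polr2e fell (-2.58 and -2.79). Polr2l fell (-1.85 and -1.62) (adjusted p = 0.023 and 0.038), calls lost in the sex-converted line without GV replicate 1 or MII replicate 1 (0.104 and 0.139) and in the native line without GV replicate 2 or MII replicate 2 (0.303 and 0.182), and Polr2h did not pass the test (0.01 and 0.93). In the native line Polr2h passed without native GV replicate 2 (1.57, adjusted p = 0.00729), with RLE factors (0.043), with DESeq2 (0.0356) and with the crossed replicate block (0.0271). Across the 12 subunits, the level per kilobase of the most abundant was 213 to 708 times that of the least abundant in MII libraries. In GV libraries it was 64.8 to 142 times. By this measure the subunits' mRNAs were more unequal at MII. The least abundant at MII, Polr2l or Polr2b, had only 0.46 to 1.31 CPM per kilobase, so the ratio is imprecise. The median level of the 12 subunits was 7.96 ± 0.155 CPM per kilobase in sex-converted MII against 23.2 ± 1.96 in sex-converted GV oocytes, and 9.24 ± 0.718 in native MII against 24.6 ± 2.18 in native GV oocytes (SD, n = 2 each). On the TMM scale their summed level was 1310.0 ± 33.2 CPM in sex-converted MII against 925.9 ± 25.6 CPM in sex-converted GV oocytes, and 1356 ± 126 CPM in native MII against 989.6 ± 28.9 CPM in native GV oocytes, with Polr2c the largest part of it at MII (mean 613 CPM in the sex-converted and 662 CPM in the native line). With library totals the direction turned, at 958 ± 25.6 CPM in sex-converted MII against 1294 ± 3.79 CPM in sex-converted GV oocytes, and 975 ± 77.8 CPM in native MII against 1339 ± 75.7 CPM in native GV oocytes.

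**Figure D4:**
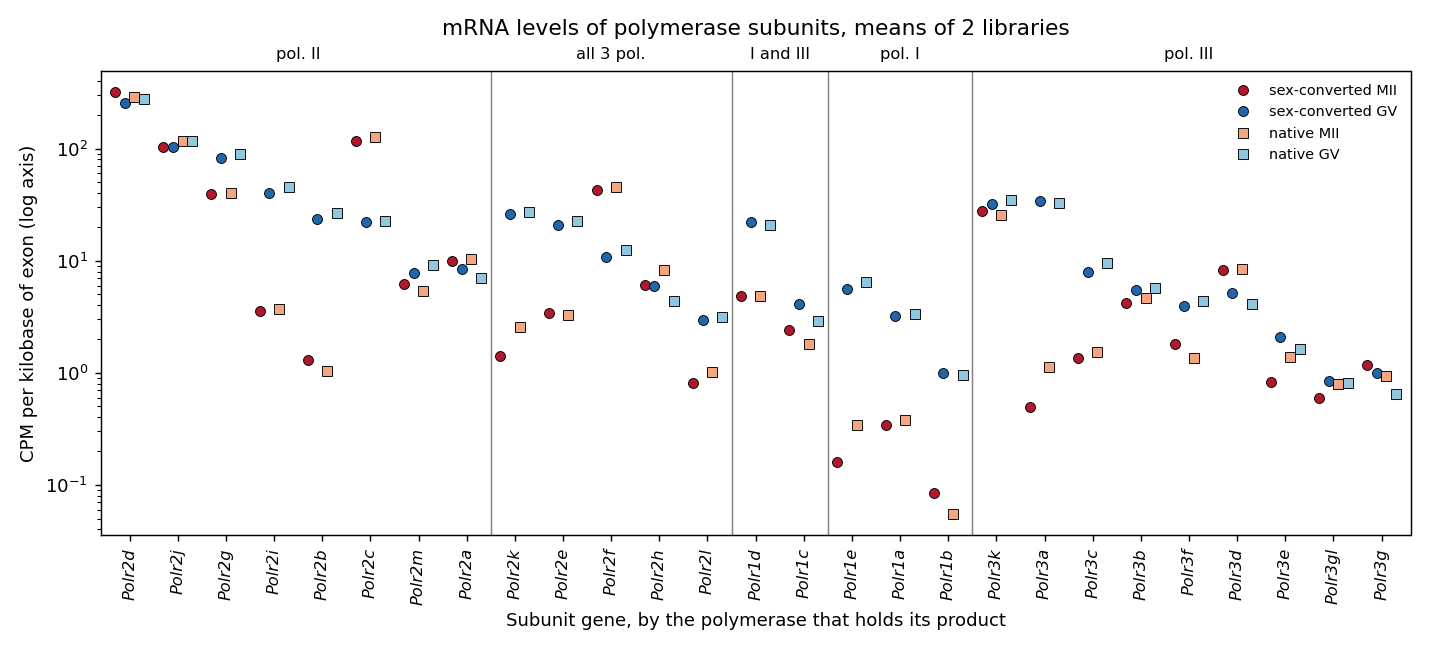
Points are the mean CPM per kilobase of exon (log axis) of 2 libraries for each subunit, in the order sex-converted MII, sex-converted GV, native MII and native GV, with subunits sorted by the polymerase that holds their product. Polr2c and Polr2f lie higher at MII, and Polr2b, Polr2i, Polr2k, Polr3a and the 3 members of polymerase I lie lowest at MII relative to GV.

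The 3 members of polymerase I alone fell in both lines, where 36.2% and 35.7% of all genes tested were called lower. Of its subunit genes outside the rule, Znrd1 and Cd3eap fell and Twistnb rose, as given below. Polr1a, the largest subunit, had 2.85 and 5.23 CPM in sex-converted MII against 37.6 and 38.5 CPM in sex-converted GV, and 3.82 and 5.21 CPM in native MII against 40.7 and 39.1 CPM in native GV oocytes (-3.22 ± 0.33 and -3.15 ± 0.33, adjusted p = 8.8e-06 and 1e-05). Polr1e, which helps in initiation, had 0.876 and 0.3804 CPM in sex-converted MII against 19.7 and 24.2 CPM in sex-converted GV, and 2.20 and 0.463 CPM in native MII against 26.0 and 23.9 CPM in native GV oocytes (-5.14 ± 0.57 and -4.17 ± 0.52). Polr1b, the second-largest subunit, was low throughout, with 9 reads in sex-converted MII against 213 in sex-converted GV and 6 in native MII against 176 in native GV oocytes (-3.60 ± 0.81 and -4.11 ± 0.86). The 3 together summed to 5.16 ± 0.639 CPM in sex-converted MII against 65.9 ± 2.28 CPM in sex-converted GV oocytes, and 6.16 ± 0.202 CPM in native MII against 70.4 ± 1.17 CPM in native GV oocytes (SD, n = 2 each). Of the subunits shared by polymerases I and III, Polr1d fell (-2.18 and -2.11), and Polr1c did not pass the test (-0.76 and -0.67).

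SL1 is the factor that carries TBP to the ribosomal RNA promoter, and its 4 TAFs fell in both lines. The share of all genes tested that fell was 36.2% in the sex-converted and 35.7% in the native line. Taf1a had 51.7 and 47.8 CPM in sex-converted MII against 181 and 207 CPM in sex-converted GV, and 53.0 and 53.3 CPM in native MII against 227 and 203 CPM in native GV oocytes (-1.97 ± 0.19 and -2.01 ± 0.19, adjusted p = 5.6e-06 and 4.7e-06). Taf1b had 4.82 and 3.14 CPM in sex-converted MII against 50.5 and 59.2 CPM in sex-converted GV, and 4.49 and 2.78 CPM in native MII against 70.4 and 46.4 CPM in native GV oocytes (-3.79 and -3.99). Taf1d fell (-2.15 and -2.61). Taf1c had 1 read in sex-converted MII against 146 in sex-converted GV libraries, a level at GV that was 76.9 times as high with a counting interval of 13.6 to 3058, and 8 reads in native MII, all of them in replicate 1, against 95 in native GV libraries. Of its exon bases, 16.7% lie opposite Dnaaf1. Its native call (-2.90, adjusted p = 0.025) was lost without native GV replicate 2 (0.126) or native MII replicate 2 (0.103). All 4 were apart between stages, and summed to 59.9 ± 0.474 CPM in sex-converted MII against 280.5 ± 35.2 CPM in sex-converted GV oocytes, and 62.1 ± 2.54 CPM in native MII against 306 ± 46.5 CPM in native GV oocytes (SD, n = 2 each).

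Of 6 further polymerase I genes, 4 fell and 1 rose in each line (66.7% and 16.7%). Among all genes tested, 36.2% fell and 29.3% rose in the sex-converted line, and 35.7% and 29.6% in the native line. Rrn3, which links polymerase I to SL1 (-1.92 and -2.08), and Ubtf, which bends the promoter DNA (-1.92 and -1.12), fell. So did the subunit genes Znrd1 (-6.73 and -4.58) and Cd3eap (-1.235 and -1.127), whereas Twistnb, a subunit of the stalk (1.89 and 1.90), rose.

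Of the 10 members of polymerase III alone, 1 rose and 4 fell in each line, with 3 lower in both, and with library totals 0 rose and 7 fell in each. Polr3a (chr14:24448696-24487058, minus strand), the largest and catalytic subunit, fell furthest in the sex-converted line among members called in both lines, and in the native line Gtf2f1 alone fell further. It had 4.49 and 1.33 CPM in sex-converted MII against 208 and 187 CPM in sex-converted GV, and 11.3 and 1.97 CPM in native MII against 190.4 and 192 CPM in native GV oocytes (-6.11 ± 0.67 and -4.82 ± 0.61, adjusted p = 1.5e-05 and 4.1e-05). The GV libraries lay between 187 and 208 CPM, and the MII libraries differed more than 3-fold within each line. Polr3c fell (-2.56 and -2.63) and Polr3f by 1.11 and 1.69, the call on Polr3f in the sex-converted line being lost without sex-converted GV replicate 2 (adjusted p = 0.059). Polr3e fell in the sex-converted line (-1.32, adjusted p = 0.0058) and was at -0.21 in the native line.

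Polr3d rose by 0.70 and 1.03 (adjusted p = 0.034 and 0.0053), with 21.0 and 26.4 CPM in sex-converted MII against 15.8 and 13.4 CPM in sex-converted GV, and 26.0 and 21.6 CPM in native MII against 11.4 and 11.96 CPM in native GV oocytes. In the sex-converted line this call was lost without either sex-converted GV library (0.83 and 0.62) or MII replicate 2 (0.53), and with library totals (-0.24). It was also lost there with no filter on low counts (adjusted p = 0.119), a mean of at least 50 reads (0.0513) and the replicate block (0.0582). Polr3k, the most abundant at MII per kilobase, had 79.4 and 93.5 CPM in sex-converted MII against 107 and 95.1 CPM in sex-converted GV, and 76.4 and 82.7 CPM in native MII against 100.6 and 116 CPM in native GV oocytes, and missed the threshold (-0.22 and -0.44, adjusted p = 0.33 and 0.066). Polr3b, Polr3g and Polr3gl were not called. Polr3g and Polr3gl, alternative forms of 1 subunit, were both below 6 CPM in all libraries.

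In TFIIIC, which binds tRNA gene promoters, and TFIIIA, which binds the 5S RNA gene, 3 of 7 members fell in the sex-converted line and 4 in the native line, where 1 rose. Gtf3a, the gene of TFIIIA, fell (-1.92 and -2.42), with 59.1% of its exon bases opposite Mtif3. Gtf3c6 fell (-2.01 and -2.30), and Gtf3c5 by 2.56 and 2.95, from 70 reads or fewer per group. Gtf3c2 had 38.3 and 43.5 CPM in sex-converted MII against 52.5 and 64.6 CPM in sex-converted GV, and 44.3 and 36.5 CPM in native MII against 66.9 and 56.8 CPM in native GV oocytes. It was called in the native line alone (-0.61, adjusted p = 0.032), not without native GV replicate 1 or native MII replicate 2 (-0.47 and -0.51). That call was also lost with the replicate block (0.055) and in the compared libraries alone (0.0593). In the sex-converted line (-0.52, adjusted p = 0.062) it passed with library totals (-1.45), a mean of at least 50 reads (0.0225) and the crossed replicate block (0.0485). Gtf3c2 shares 38.9% of its exon bases on the same strand with the readthrough model Gm29609. Gtf3c4 rose in the native line (2.31, adjusted p = 0.0036, or 1.72 and 3.31 without native GV replicate 1 or 2) and was not called with library totals (1.39, adjusted p = 0.0515). In the sex-converted line it was at 1.08 (adjusted p = 0.0879), and it passed without sex-converted GV replicate 1 (1.79, adjusted p = 0.0268), without either native GV library (0.0378 and 0.0392), with no filter on low counts (0.0423) and with the crossed replicate block (0.0463). Gtf3c1 and Gtf3c3 were not called.

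Of 10 further polymerase III genes, 2 rose and 7 fell in each line (20.0% and 70.0%). Among all genes tested, 29.3% rose and 36.2% fell in the sex-converted line, and 29.6% and 35.7% in the native line. Brf1 (-3.51 and -2.89) and Brf2 (-3.49 and -3.35), the TFIIB relatives of polymerase III, and Crcp, a subunit (-4.52 and -4.21), fell, and Bdp1, the third part of TFIIIB, rose (2.76 and 2.84). Snapc1 rose (1.95 and 1.81) while Snapc2, Snapc3, Snapc4 and Snapc5, of the same complex at small nuclear RNA promoters, fell by 1.22 to 3.81.

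Of the 4 members outside these complexes, Taf15, an RNA-binding protein of the FET family found with TFIID, rose, with 133 and 157 CPM in sex-converted MII against 33.3 and 43.7 CPM in sex-converted GV, and 137 and 131 CPM in native MII against 31.4 and 40.03 CPM in native GV oocytes (1.91 in both lines, adjusted p = 2.5e-05). Gtf2i was low, at 6.02 CPM or less, and was called in the native line alone (1.34, adjusted p = 0.046), not without native MII replicate 1 (0.57, adjusted p = 0.454) or native GV replicate 2 (0.97, adjusted p = 0.207). Gtf2ird1 was not called. Gtf2ird2 had 0 reads in sex-converted MII against 26 in sex-converted GV libraries, at least 4.57-fold lower at MII against a floor of 3 reads over the group, and 3 reads in native MII against 18 in native GV libraries, a ratio of 3.57 in favour of GV with a counting interval of 1.04 to 18.9.

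Beyond the promoter, 30 genes of elongation and pausing were examined, of which 29 were tested. In the sex-converted line 9 rose and 15 fell (31.0% and 51.7%), and in the native line 9 rose and 16 fell (31.0% and 55.2%). The shares of all genes tested were 29.3% and 36.2% in the sex-converted line, and 29.6% and 35.7% in the native line. Tcea1, which rescues stalled polymerase II (2.44 and 2.54), Cdk13 (2.31 and 2.63) and the cyclin gene Ccnt2 (2.06 and 2.00) rose. Nelfe, of the pausing factor NELF (-5.12 and -4.48), and Ctr9 and Paf1, of the PAF complex (-4.67 and -3.83, and -4.53 and -4.26), fell, while the NELF genes Nelfa and Nelfb rose (0.63 to 1.70). Polymerase assembly and phosphatases of the polymerase II C-terminal repeats were covered by 12 genes. Of these, 4 rose and 4 fell in the sex-converted line, and 4 rose and 3 fell in the native line. That is 33.3% higher in each line and 33.3% and 25.0% lower, beside the shares of all genes just given. Ssu72, such a phosphatase, rose (1.89 and 1.75) and Gpn1, of polymerase import, fell (-3.27 and -3.62). Of 3 TBP regulators, Btaf1 rose (0.53 and 0.52), Drap1 fell (-1.66 and -1.46) and Dr1 was not called.

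The lines were also compared at each stage, which asks whether oocytes of the sex-converted line hold the same mRNA levels as those of the native line. No member was called between the lines at MII or at GV, and none in the interaction of line and stage, by edgeR's quasi-likelihood test (smallest adjusted p = 1 in each) or by DESeq2. Of all genes, 2 of 14929 were called at MII and 2 at GV (0.0134% each), and 0 in the interaction (0.0%). At an unadjusted p under 0.05 there was 1 of the 75 members tested in each of the 3 comparisons. The share of all genes under that unadjusted threshold was not counted, so such a member is no evidence of a difference between the lines. The median size of the members' difference was 0.15 at MII and 0.14 at GV on the log2 scale. At MII the member under the unadjusted threshold was Taf4b, at 85.6 and 85.8 CPM in sex-converted oocytes against 58.1 and 59.7 CPM in native ones, a log2 difference of 0.54 ± 0.21. The values did not overlap, nor did those at GV given above (0.32 ± 0.21), but with 2 libraries a group this alone does not show a difference. At GV it was Gtf3c4, at 6.68 and 2.92 CPM in the sex-converted line against 1.00 and 3.10 CPM in the native line (1.24 ± 0.55), with overlapping values. In the interaction it was Polr3e (-1.11 ± 0.48). A p that misses the threshold with 2 libraries a group does not show that the lines are alike, but for Gtf2a1 and Taf4 the changes of the lines differed by less than their standard errors (interaction -0.15 ± 0.27 and -0.01 ± 0.24).

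By stage, 22 members lay above and 36 below at MII in each of the 4 MII libraries relative to each GV library, and 17 of those tested overlapped. The share of all genes tested whose stages were apart in this way was not counted, so these counts are no result about the members. The fold of the deepest falls rests on few reads at MII and moved with single libraries. Polr3a had 41 and 14 reads in sex-converted MII and 118 and 17 reads in native MII libraries, and its native change was -6.61 when native MII replicate 1 was left out and -4.11 when replicate 2 was. Without native MII replicate 1, the native changes of Polr1e, Taf6l, Polr2k and Gtf2h5 were -5.74, -6.15, -4.61 and -4.99, and without replicate 2 those of Polr1e and Taf6l were -3.53 and -4.19. Without sex-converted MII replicate 1, the sex-converted changes of Polr2b, Gtf2h5, Taf6l and Polr3a were -5.60, -6.68, -6.83 and -7.21, and without replicate 2 they were -3.47, -3.57, -4.95 and -5.46. The sex-converted changes of Polr2k and Polr1e were -3.52 and -5.82 without replicate 1, and that of Polr2k was -5.60 without replicate 2. That of Polr1b, with 0 reads left at MII without replicate 1, has no fitted value that can be read. Polr2l was at -2.67 without sex-converted MII replicate 2 and at -2.32 without native MII replicate 1 in the line concerned. In each of these cases the fall stayed called. The sex-converted change of Polr1b was -2.55 without sex-converted MII replicate 2, that of Taf1d was -1.48 without sex-converted GV replicate 2 and -2.87 without MII replicate 2, and that of Gtf3c5 lost its call without MII replicate 2 (adjusted p = 0.088). The native changes of Gtf3c5, Gtf2f1 and Polr2i were -4.06, -5.89 and -4.30 without native MII replicate 1, and that of Taf1d was -1.99 without native GV replicate 1. The call on Tbpl2 in the native line was lost without native GV replicate 2 or MII replicate 2 (adjusted p = 0.10 and 0.075). The sex-converted call on Gtf2ird2 was lost without GV replicate 1 or either MII library (0.098, 0.064 and 0.078). Sex-converted MII replicate 1 and native MII replicate 1 were also the MII libraries with the larger sums of stroma and theca markers within their groups (13.7 and 19.5 CPM), and the part of such cells in these reads was not tested.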

How the data were processed

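The deposited values are raw read counts per gene, which the authors made with Trimmomatic 0.38, HISAT2 2.1.0, featureCounts 2.0.0 and the mm10 build, per the submitters' processing notes. These notes also name DESeq2 1.30.1. How strand was treated in counting, and which annotation was used, is not stated in the labels. Symbols, coordinates and exon lengths were taken from GENCODE M21, which matched 55144 of 55385 identifiers, and the 241 others held 0.0033% of reads. Libraries had 13 cycles of PCR and single reads of 75 bases without molecular identifiers, so counting intervals (95%) and the floor of 3 reads cover counting error only.

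Counts were tested in edgeR 4.0.16 (R 4.3.3) by the quasi-likelihood F test with TMM factors of 0.714 to 0.733 for MII and 1.33 to 1.43 for GV libraries. The fit took the 8 libraries together, each group having its own coefficient, with 4 residual degrees of freedom (common biological coefficient of variation 0.243). The filter filterByExpr (by group, minimum count 10) left 14929 genes. Tests were two-sided, and each printed adjusted p is Benjamini-Hochberg over these genes. A standard error is the size of the log2 fold change divided by the root of its F statistic. The steps were tested on simulated counts. Levels per kilobase divide CPM by the union of annotated exons. Where a pair of changes is given, the sex-converted line is the first.

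The members, role groups, marker and pathway lists were chosen with earlier results of these data known. Members named with values in every library were Gtf2a1, Gtf2a1l, Tbp, Tbpl1, Tbpl2, Taf4 and Taf4b, the 10 with the largest change in each direction called in both lines with at least 10 CPM in the higher stage, and the most abundant and most changed of each role group. Others with such values were added after their values were seen. One member is included in the counts, but its values are not reported here. Alternatives were factors by DESeq2's method (RLE), library totals, no filter on low counts, a mean of at least 50 reads, DESeq2 1.42.0, the compared libraries alone, a replicate block and each library left out. A crossed replicate block was added after seeing the data. Replicate numbers were not treated as pairs: the correlation of the duplicates' differences over genes between groups was between -0.75 and 0.28.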

Additional observations from a re-analysis of the deposited data

How the results depend on the processing

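The counts of members called higher and lower were 20 and 32 in the sex-converted line and 23 and 34 in the native line. With library totals in place of TMM, which shifts the median change over all genes tested by -0.93 in the sex-converted and -0.91 in the native line, they were 13 and 46, and 13 and 45. TMM factors differ between the stages, so the direction of members near 0 depends on the scaling. With library totals the sex-converted values of Gtf2a1l, Gtf2b, Polr2d and Tbpl2 were -0.72, -0.78, -0.63 and -0.17, and the native values of Gtf2a1l and Polr2d were -0.60 and -0.85. The native value of Polr2d was also -0.0312 with no filter and -0.0159 with a mean of at least 50 reads. With single libraries left out it ran from -0.00990 to 0.148, and that of Gtf2b from -0.21 to 0.0709. Under the other alternatives the counts stayed within 1.5 times: 21, 32, 25 and 34 with RLE factors and with DESeq2, 19, 32, 23 and 31 with the replicate block, 22, 34, 23 and 34 with the crossed replicate block. The replicate numbers do not pair the libraries, and the GV libraries of the lines differed in opposite ways by number. Leaving out 1 library at a time gave 18 to 22 higher and 28 to 32 lower in the sex-converted line, and 21 to 25 and 29 to 34 in the native line. Counting polymerase I subunits under their newer symbols as members gave 21, 34, 24 and 36. No setting called a member between the lines or in the interaction. With 2 libraries a group, small differences between lines were not detectable, and folds at under about 10 reads in a group are imprecise.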

Other observations

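Outside the members, the genes above 10 CPM at MII whose changes in both lines were nearest to those of Gtf2a1 were Tceanc, Myef2, Khsrp, Foxn2 and Gm5435, by Euclidean distance over the 2 log2 fold changes. Tceanc, a gene with a domain like that of the elongation factor TFIIS, had log2 fold changes of 5.73 in the sex-converted and 6.08 in the native line. Khsrp, which encodes an RNA-binding protein of mRNA decay, averaged 1051 CPM in sex-converted MII against 25.9 CPM in sex-converted GV oocytes, and 945 CPM in native MII against 14.3 CPM in native GV oocytes. Foxn2, a forkhead gene, averaged 1022 CPM in sex-converted MII against 24.7 CPM in sex-converted GV oocytes, and 1029 CPM in native MII against 17.6 CPM in native GV oocytes.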
